A study of Mus musculus with 9 samples.

Results

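MicroRNA genes whose H3K4me3 windows held signal were described in mouse MLL-ENL leukemia cells, in which Kmt2a (MLL) fused to Mllt1 (ENL) drives growth of myeloid cells. The members were chosen by their mean raw H3K4me3 count: a gene symbol of Mir followed by a digit, or Mirlet, and at least 20 counts on average across the H3K4me3 libraries of the 3 genotypes. Of 649 microRNA rows among 26611 named rows, 82 met this rule, or 12.6%, against 25.4% of the other named rows. A further 363 microRNA rows had at least 1 count but stayed below the threshold, and 204 had no H3K4me3 count in any library. Just inside the threshold were Mir5123, with 32, 15 and 18 counts in the floxed, deleted and rescue libraries, and Mir5126, with 31, 21 and 16. Just outside it were Mir467f, with 35, 13 and 8 counts, and Mir15b, with 23, 12 and 16. The H3K4me3 levels of the members, and the lower count of Mir210 in the deleted library, were known when the members were chosen, so they are given as a description. Mir22hg is the host transcript of Mir22 and not a hairpin, but its symbol met the rule. The other 81 members had spans of 64 to 119 bp.

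The study carried out chromatin immunoprecipitation with sequencing for H3K27me3, H3K4me3 and a Flag tag in each of 3 genotypes, giving 9 libraries with 1 library per group. The floxed cells (labelled fl) carried the floxed allele, the deleted cells carried the modification labelled ΔERT2, and the rescue cells carried ΔERT2 together with Flag-tagged Hhex (labelled Hhex-F). All 3 genotypes carried the MLL-ENL leukemia background. The labels name no floxed gene, so reading it as Hhex, a homeobox transcription factor of early blood cells, rests on the series title and the tagged gene. The labels also do not say how the deletion was induced, or whether each genotype was 1 clone or 1 animal's leukemia.

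A microRNA gene is transcribed as a long primary transcript, from which Drosha and Dgcr8 cut a hairpin and Dicer1 cuts a short duplex. One strand of the duplex guides an Argonaute protein to messenger RNAs that pair with its seed, which spans bases 2 to 8, and microRNAs with the same seed can share targets. H3K4me3 is the histone mark of active or poised transcription starts, and H3K27me3, deposited by Polycomb repressive complex 2, marks repressed genes. The start of a primary transcript can lie far from its hairpin, so a window at the hairpin need not cover the promoter of that microRNA.

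The hairpin of Mir210, the member known to differ most between floxed and deleted, is shown first. It lies on the minus strand at chr7:141221384-141221493 (GRCm38.p6), outside the span of any other gene. Capitals mark the 2 mature arms, and all sequences here are from RefSeq for that assembly.
Mir210 hairpin: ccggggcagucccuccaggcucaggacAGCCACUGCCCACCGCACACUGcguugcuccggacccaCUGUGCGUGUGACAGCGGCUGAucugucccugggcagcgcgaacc
The mature arms below have their seed in capitals. The first set belongs to members past the size rule for a difference between genotypes described further on, miR-210-3p among them.
miR-210-3p: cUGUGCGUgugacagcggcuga
miR-146b-5p: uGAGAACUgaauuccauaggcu
miR-33-5p: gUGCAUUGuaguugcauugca
miR-688: uCGCAGGCgacuacuuauuc
miR-199b-3p: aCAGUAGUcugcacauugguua
miR-484: uCAGGCUCaguccccucccgau
The second set shows the families in which members on different chromosomes or in 1 cluster carry the same seed. Mir9-1, Mir9-2 and Mir9-3, on chromosomes 3, 13 and 7, encode the same mature miR-9-5p. Between the others the seed is shared and the remaining bases differ.
miR-9-5p: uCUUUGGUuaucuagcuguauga
miR-132-3p: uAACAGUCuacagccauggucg
miR-212-3p: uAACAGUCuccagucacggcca
miR-148a-3p: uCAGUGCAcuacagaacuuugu
miR-152-3p: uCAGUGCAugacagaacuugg
miR-34b-3p: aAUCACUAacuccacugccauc
miR-34c-3p: aAUCACUAaccacacagccagg
The third set holds arms of the best-known blood and leukemia microRNAs among the members, and of the members with H3K27me3 counts.
miR-142a-3p: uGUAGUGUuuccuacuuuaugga
miR-223-3p: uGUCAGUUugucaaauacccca
miR-196b-5p: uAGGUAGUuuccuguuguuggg
let-7i-5p: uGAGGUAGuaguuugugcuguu
miR-21a-5p: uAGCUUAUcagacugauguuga
miR-191-5p: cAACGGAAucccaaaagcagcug
miR-425-5p: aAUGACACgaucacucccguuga
miR-203-3p: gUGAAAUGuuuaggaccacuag
miR-129-5p: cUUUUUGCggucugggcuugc
miR-193a-3p: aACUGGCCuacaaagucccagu
A hairpin entry matched 70 of the 82 members by gene identifier and a mature entry matched 74. Over the 116 matched mature arms, 6 seeds were shared by at least 2 members, which together covered 11 members. Besides the families printed, the opposite arm of the Mir9 genes shares the seed UAAAGCU, and Mir2861 and Mir3091 share GGGCCUG.

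Some members lie inside the promoter of a protein-coding gene, which the next sequences show. The window of 300 bases at the start of Cdk9, the kinase of the elongation factor P-TEFb, lies on the minus strand at chr2:32712735-32713034 and holds the whole Mir2861 hairpin, printed in capitals, from base -104 to base -23 counted from the Cdk9 start.
Cdk9 promoter with Mir2861: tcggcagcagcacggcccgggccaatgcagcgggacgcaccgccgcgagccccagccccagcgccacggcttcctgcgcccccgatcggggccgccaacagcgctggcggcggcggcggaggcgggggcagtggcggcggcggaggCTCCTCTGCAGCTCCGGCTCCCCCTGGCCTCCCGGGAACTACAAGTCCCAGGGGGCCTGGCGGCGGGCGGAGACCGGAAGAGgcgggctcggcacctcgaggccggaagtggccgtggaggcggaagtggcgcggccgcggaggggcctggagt
The window at the start of Gspt1, a translation termination factor, lies on the minus strand at chr16:11254276-11254575 and holds Mir1945, in capitals, from base -120 to base -43.
Gspt1 promoter with Mir1945: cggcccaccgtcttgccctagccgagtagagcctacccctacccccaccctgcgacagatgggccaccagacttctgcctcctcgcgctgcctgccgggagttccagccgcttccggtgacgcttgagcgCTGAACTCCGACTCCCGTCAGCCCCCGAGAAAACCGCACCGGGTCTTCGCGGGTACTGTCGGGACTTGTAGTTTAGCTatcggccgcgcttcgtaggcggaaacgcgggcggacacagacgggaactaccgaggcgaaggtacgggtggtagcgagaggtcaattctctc
The dinucleotide CG, which reads the same on both strands, occurs 39 times in the Cdk9 window and 32 times in the Gspt1 window. Over all 32851 RefSeq promoter windows of that length the median was 7, and 26.5% held at least 20. Mir2861 had 38, 28 and 29 H3K4me3 counts in floxed, deleted and rescue, and Mir1945 had 35, 21 and 20. Both therefore had signal in every library while sitting in the promoter of another gene.

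H3K4me3 was counted by the authors in a short window of fixed length per gene, at a position not given in the sources used here, and H3K27me3 over the whole gene span. The named-gene totals were 645240, 420701 and 395133 H3K4me3 counts in floxed, deleted and rescue, and 2444487, 2535576 and 4203349 H3K27me3 counts. The H3K4me3 windows of protein-coding genes held a median of 25.67 counts for 7002 plus-strand genes and 0.67 for 7073 minus-strand genes with 1 annotated start. A low count at a minus-strand gene was therefore not read as a missing promoter mark. Hairpins are shorter than the window, and 39 of 299 plus-strand hairpins (13%) and 31 of 226 minus-strand hairpins (13.7%) were members. Among cell type markers, 14 of 20 myeloid and leukemia genes reached a mean of 20 H3K4me3 counts, with summed levels of 2161 to 2497 counts per 1e6 named-gene counts (CPM). Of these, Elane and Hoxa10 were past the size rule (a 1.5-fold ratio with an interval off 1) as lower in deleted against floxed. Elane and Irf8 were past it as higher in rescue against deleted. In rescue against floxed, Mpo was past it as lower and Irf8 as higher. Over all 6681 genes with such a mean, 4.39%, 4.49%, 3.92% and 1.92% were past it, in that order. Of 7 B cell markers only Ebf1 reached a mean of 20 (summed CPM 57.3 to 83.2), and of 7 stromal and endothelial markers only Cxcl12 (202 to 262). None of 7 T and NK cell markers (10.8 to 26.1, Lck at 0) or of 8 erythroid and megakaryocyte markers (88.6 to 99.8) reached it. Outside the myeloid list only Ebf1 and Cxcl12 were measured, and neither was past the size rule in any of the 3 comparisons. With so few measured genes the lists cannot be compared on this point. The part of these marker differences in the results below was not tested. In bulk chromatin, fewer cells with a mark and less mark per cell cannot be told apart.

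The hairpins with H3K4me3 signal lay closer to the start of another gene than the other microRNA rows did. The median distance was 1285 bp for the 78 members and 21404 bp for the 553 other rows that had an annotated start to measure from, and 33 members (42.3%) lay within 1000 bp against 36 other rows (6.51%). Within 500 bp the shares were 32.1% and 3.98%. Lying inside the span of another gene was about as frequent in both, at 60 of 82 members (73.2%) and 384 of 566 other rows (67.8%). The hairpins themselves were richer in G and C, with a median of 57.6% (quartiles 50.3% to 67.5%, n = 70) against 48.3% (42.5% to 54.5%, n = 455). At least 1 CG occurred in 85.7% of member hairpins and in 67.9% of the others. These are descriptions over genes, since the rule chose the members on the signal that marks starts.

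**Figure D1:**
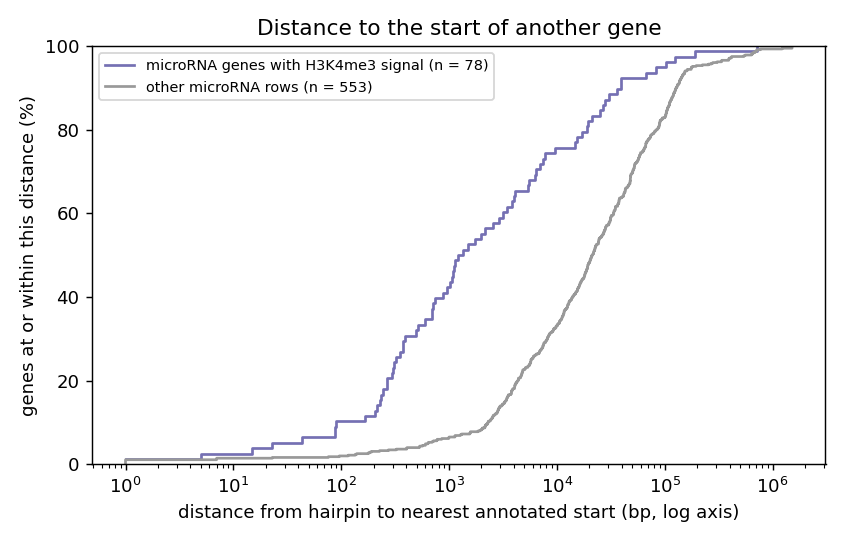
Cumulative share of microRNA genes (%, vertical axis) by distance from the hairpin to the nearest annotated start of another gene (bp, log axis; a distance of 0 is drawn at 1 bp). The curve of the 78 members rises earlier than that of the 553 other rows, reaching 42.3% against 6.51% at 1000 bp.

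For the members within 1000 bp of a start, the window at the hairpin could be set beside the window at the neighbouring gene. The rule kept only hairpins with a mean of at least 20 counts and put no such minimum on the neighbours, so which window is the higher follows in part from that choice and is given as a description. Near the start of a plus-strand gene (14 members, 13 of them downstream of it), the hairpin window had the higher mean count in 12, with medians of 67.7 for the hairpins and 25.2 for the genes. Mir207, which overlaps the start of Dnaja1, a co-chaperone of Hsp70, had 206, 144 and 136 counts against 70, 44 and 43 at Dnaja1. Mir3091, 87 bp from the start of Rps21, a ribosomal protein of the small subunit, had 108, 64 and 63 against 7, 6 and 6. In both pairs the hairpin window was the higher in every library. Both distances are shorter than the window, so the windows of a pair can share reads. The exceptions were Mir152, with 97, 61 and 69 against 124, 78 and 81 at Copz2, a coat protein subunit, and Mir1900, with 78, 48 and 40 against 85, 73 and 82 at the adhesion gene Icam5. For the 19 members near the start of a minus-strand gene the medians were 87.7 for the hairpins and 0.667 for the genes, where minus-strand genes as a whole had a median of 0.67, so no order was read from these pairs. Of the 19 genes only Ndufaf3, beside Mir191, reached a mean of 20, with 75, 50 and 44 counts. Mir219a-1, 303 bp upstream of the Polycomb gene Ring1, had 184, 132 and 112 counts where Ring1 had 0, 0 and 0. Mir5133, 15 bp downstream of the start of Glce, a heparan sulfate epimerase, had 105, 81 and 77 against 1, 0 and 0. In both pairs counts near the annotated start were recorded at the hairpin row; where the gene's own window sat is unknown here.

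The members together held 8140, 5122 and 4883 counts, or 1.26%, 1.22% and 1.24% of the floxed, deleted and rescue libraries. No member was at 0 in any H3K4me3 library, and the mean level ranged from 43.6 to 452 CPM with a median of 134. Levels are per window, and since all of these windows are of equal length they can be set side by side. The highest was Mir760, with 312, 174 and 181 counts (484, 414 and 458 CPM), followed by Mir1901, in Cables1, with 297, 177 and 183 counts (460, 421 and 463 CPM). Mir191 followed with 255, 159 and 164 counts and Mir425 with 253, 136 and 149. Both lie in Dalrd3, a gene of transfer RNA methylation, 458 bp from each other on chromosome 9. Mir207 was the fifth. Mir760 and Mir1901 changed places between libraries, so their order lay within counting error. The lowest were Mir5123 and Mir5126, given above, then Mir1956 with 34, 21 and 15 counts, Mir145a with 36, 19 and 16, and Mir1982 with 28, 21 and 23.

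Of a list of 72 microRNAs of blood and leukemia, 70 had a row and 15 were members. Mir142, a microRNA of all blood lineages, had 150, 83 and 87 counts in floxed, deleted and rescue. Mir223, a microRNA of granulocytes and monocytes, had 39, 25 and 15. Mir196b, which lies in the Hoxa cluster that MLL fusions activate, had 152, 94 and 87. The counts of Mir142 and Mir196b were several times those of Mir223 in each library. Mir21a, known for promoting cell survival in tumors, had 40, 20 and 21 counts. Mirlet7i, of the let-7 family that restrains growth genes, had 119, 64 and 55. Mir150, known for repressing Myb, had 61, 26 and 25, with a deleted to floxed ratio of 0.654 (0.396 to 1.05). Its interval held 1, as did those of Mir142 at 0.849 (0.641 to 1.12), Mir223 at 0.983 (0.570 to 1.67) and Mir196b at 0.948 (0.725 to 1.23). The remaining members of the list were Mir146b, Mir191, Mir210, Mir34b, Mir34c, Mir425, Mir9-1, Mir9-2 and Mir9-3. Of the list, 23 genes had no H3K4me3 count in any library, Mir93, Mir181a-1 and Mir451a among them. Mir22, with 12, 15 and 19 counts, and Mir155, with 13, 5 and 8, fell below the threshold.

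**Figure D2:**
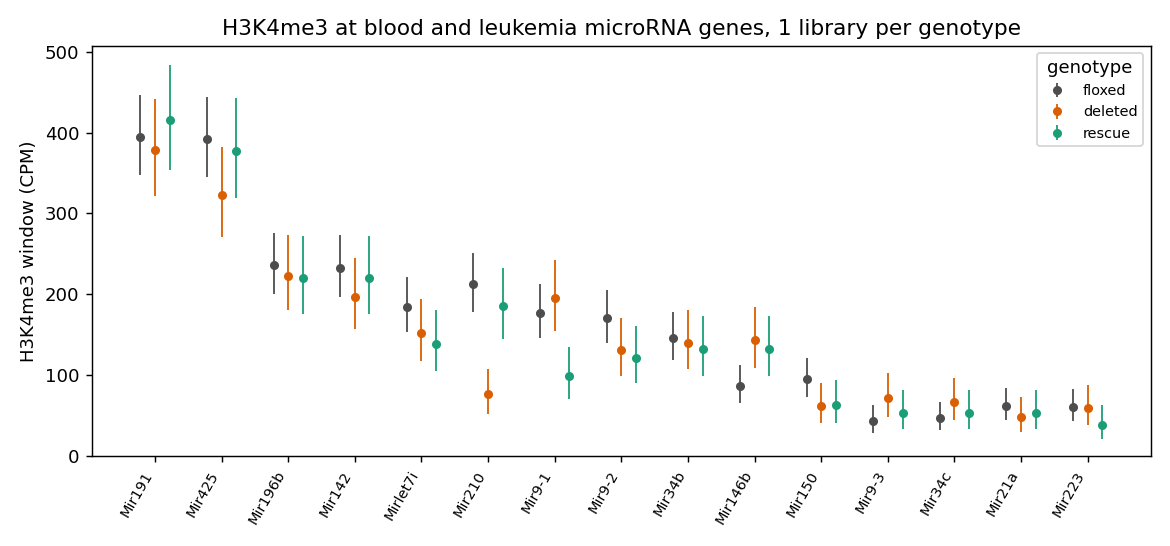
H3K4me3 level of the 15 blood and leukemia microRNA genes that were members, in CPM (vertical axis), with 1 point per library for floxed, deleted and rescue and bars for the 95% exact Poisson interval of the count. Mir191 and Mir425 stand highest in all 3 genotypes, and Mir210 has its deleted point, 76.1 CPM, below its floxed point, 212 CPM.

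To compare genotypes, counts were divided by the named-gene total of each library. The size rule for a call asked for a CPM ratio of 1.5 or more, up or down, and for a 95% exact binomial interval, given in brackets here, that did not hold 1. With 1 library per genotype there is no replicate check, so no test between genotypes was made and a call describes the libraries, with an interval that covers counting error only. Deleted against floxed, 3 of 82 members were called lower (3.66%) where 4.39% of all 6681 measured genes, those with the same minimum mean count, were, and 2 were called higher (2.44%) where 3.02% were. The median log2 ratio of the members was -0.05 (quartiles -0.27 to 0.15), beside -0.03 (-0.25 to 0.18) over all measured genes. Rescue against deleted, 7 were called lower (8.54%, against 5.97% of all) and 3 higher (3.66%, against 4.49%), with medians of 0.00 for the members and 0.03 for all genes. Rescue against floxed, 3 were called lower (3.66%, against 3.92%) and 1 higher (1.22%, against 1.92%), with medians of -0.06 and -0.01. As a group the microRNA genes were therefore called about as often as measured genes in general. Of the 82, 69 were called in none of the 3 comparisons. The deleted library enters the first and second comparisons, so a low or high count in it appears in both.

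**Figure D3:**
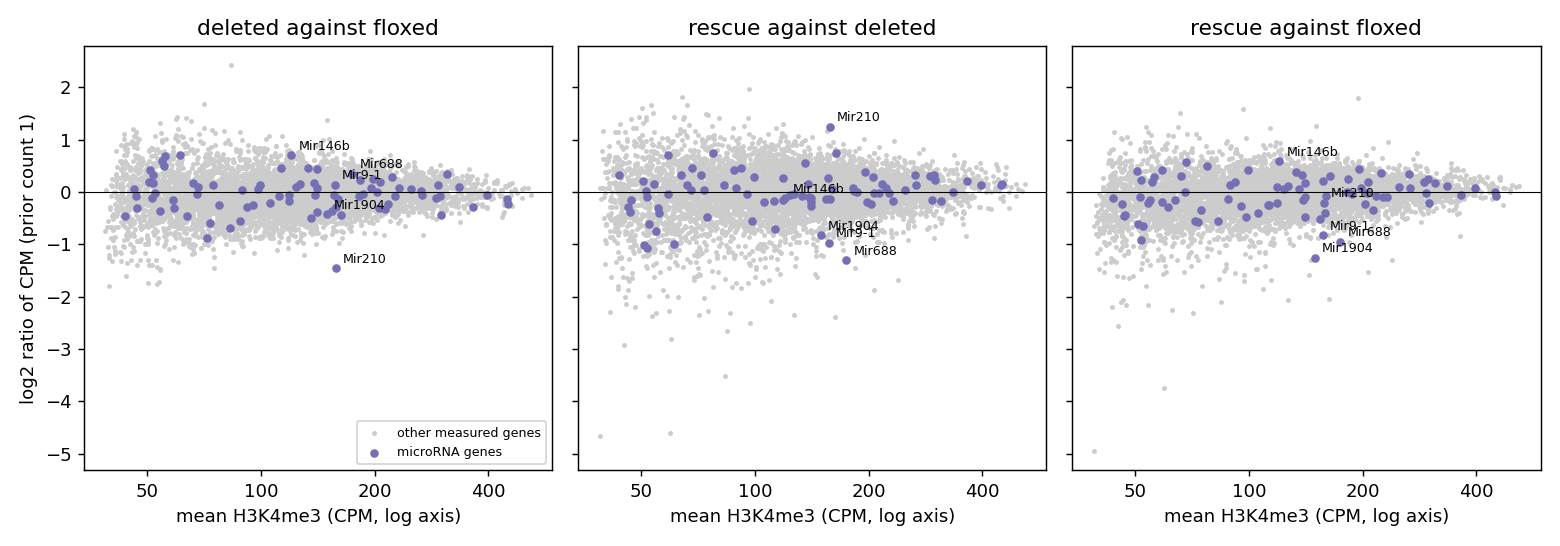
Log2 ratio of H3K4me3 CPM (vertical axis, prior count 1) against mean H3K4me3 level (CPM, log axis) for deleted against floxed, rescue against deleted and rescue against floxed; purple points are the 82 microRNA genes and grey points the other measured genes. The microRNA genes lie within the cloud of the other genes, with medians of -0.05, 0.00 and -0.06, and Mir210 is the lowest member in the first panel (-1.46) and the highest in the second (1.25).

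Mir210, the microRNA best known for its induction under low oxygen, had counts of 137 (floxed), 32 (deleted) and 73 (rescue), or 212, 76.1 and 185 CPM. The deleted library was the low one, and the floxed and rescue libraries lay close to each other. The deleted to floxed ratio was 0.358 (0.236 to 0.530), the rescue to deleted ratio 2.43 (1.58 to 3.80), and the rescue to floxed ratio 0.870 (0.646 to 1.16). These values chose Mir210 for description and carry no test. The nearest other start on record, that of the Ras-association gene Rassf7, lies 5524 bp away and had 117, 77 and 72 counts, with a deleted to floxed ratio of 1.01 (0.747 to 1.36). Its window thus held about equal levels in floxed and deleted. Over its span Mir210 had 1, 0 and 2 H3K27me3 counts.

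Genes of the low-oxygen response, together with regulators and targets that Mir210 is known with, were described as 1 list. Of 42 listed genes 23 were measured, with 1 called lower and 1 higher in deleted against floxed (4.39% and 3.02% of all measured genes) and a median log2 ratio of 0.02 (-0.03 over all). These counts are near the background and say nothing particular about the list. The lower one was Bhlhe40, a transcriptional repressor, with 54, 19 and 38 counts and ratios of 0.540 for deleted to floxed and 2.13 for rescue to deleted. The higher one was Adm, a vasodilator peptide, with 23, 84 and 6 counts and a ratio of 5.60 for deleted to floxed. Bhlhe40 was thus low in deleted like Mir210, while Adm was high there. Rescue against deleted, 3 of the 23 were called higher (Bhlhe40, Gapdh and Pgk1) and 2 lower (Adm and P4ha2). Of all measured genes 4.49% and 5.97% were, and the list median was 0.09. Whether the list differs from those shares was not tested. Pgk1, a glycolytic enzyme, had 39, 19 and 73 counts, and P4ha2, a collagen prolyl hydroxylase, had 106, 87 and 26. Rescue against floxed, Pgk1 was called higher and P4ha2 lower (1.92% and 3.92% of all measured genes), with a median of 0.14. Hif1a, the oxygen-sensitive transcription factor, had 46, 22 and 19 counts and was called in no comparison.

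The other members called in deleted against floxed were Mir1931, Mir1893, Mir146b and Mir33. Mir1931, inside the kinase gene Cdk17 on chromosome 10, had 70, 28 and 29 counts, a deleted to floxed ratio of 0.613 (0.381 to 0.964). The Cdk17 window itself had 52, 31 and 32 counts, a ratio of 0.914 (0.566 to 1.45). Mir1893, inside the chromatin gene Epc1, had 63, 22 and 26 counts, a deleted to floxed ratio of 0.536 (0.314 to 0.882). Both stayed at a similar count in rescue as in deleted. Mir146b, a microRNA of the Mir146 family that restrains NF-kB signalling, lies at chr19:46342762-46342870 and had 56, 60 and 52 counts. Its level was higher in deleted (ratio 1.64, 1.12 to 2.41) and in rescue (1.52, 1.02 to 2.25) than in floxed. Mir33, which lies within Srebf2 at chr15:82198122-82198190 and is known for restraining cholesterol export, had 34, 37 and 17 counts. The deleted to floxed ratio of Mir33 was 1.67 (1.02 to 2.74) and the rescue to deleted ratio 0.489 (0.258 to 0.891). The Srebf2 window, the sterol regulator's own, had 60, 47 and 51 counts and was called in neither comparison. The intervals of Mir1931, Mir33 and Mir146b end close to 1.

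Rescue against deleted, the members called lower were Mir688, Mir9-1, Mir1904, Mir1934, Mir1895, Mir199b and Mir33. Mir688, 745 bp upstream of the start of Atp5g2, a mitochondrial ATP synthase subunit, had counts of 121, 101 and 38. The rescue to deleted ratio of Mir688 was 0.401 (0.268 to 0.587) and its rescue to floxed ratio 0.513 (0.346 to 0.744). Mir1904, inside the cyclic AMP phosphodiesterase gene Pde4d, had 134, 65 and 34 counts, with ratios of 0.557 (0.357 to 0.856) and 0.414 (0.276 to 0.608). Mir9-1 had 114, 82 and 39 counts, with ratios of 0.506 (0.337 to 0.750) and 0.559 (0.378 to 0.810). For Mir688, Mir1904 and Mir9-1 the rescue library was the lowest of the 3, below both others by the size rule. Mir1934, 394 bp upstream of the start of Mpdu1, a gene of dolichol-linked sugar use, had 68, 61 and 35 counts (0.611, 0.391 to 0.941). Mir1895, inside Cxxc4, an inhibitor of Wnt signalling, had 38, 28 and 12 counts (0.456, 0.211 to 0.927). Mir199b, inside the dynamin gene Dnm1, had 33, 29 and 13 counts (0.477, 0.228 to 0.947). For Mir1934, Mir1895 and Mir199b the rescue level was also the lowest, but none was called in rescue against floxed. Their rescue to floxed ratios were 0.84 (0.542 to 1.28), 0.516 (0.245 to 1.01) and 0.643 (0.311 to 1.26). For Mir1934 the levels were 105, 145 and 88.6 CPM in floxed, deleted and rescue.

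Besides Mir210, Mir3077 and Mir484 were called higher in rescue against deleted. Mir3077, 235 bp downstream of the start of Sap18, a subunit of the Sin3 corepressor complex, had 106, 51 and 81 counts (1.69, 1.18 to 2.45). The Sap18 window had 10, 2 and 9 counts. Mir484, 352 bp upstream of the start of Marf1, an RNA-binding protein gene known from oocytes, had 46, 25 and 40 counts (1.70, 1.01 to 2.93). All 3 had their lowest count per library size in deleted, but for Mir3077 and Mir484 the deleted to floxed ratio was not called. Rescue against floxed, the calls were Mir688, Mir9-1 and Mir1904 lower and Mir146b higher, all described above.

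**Figure D4:**
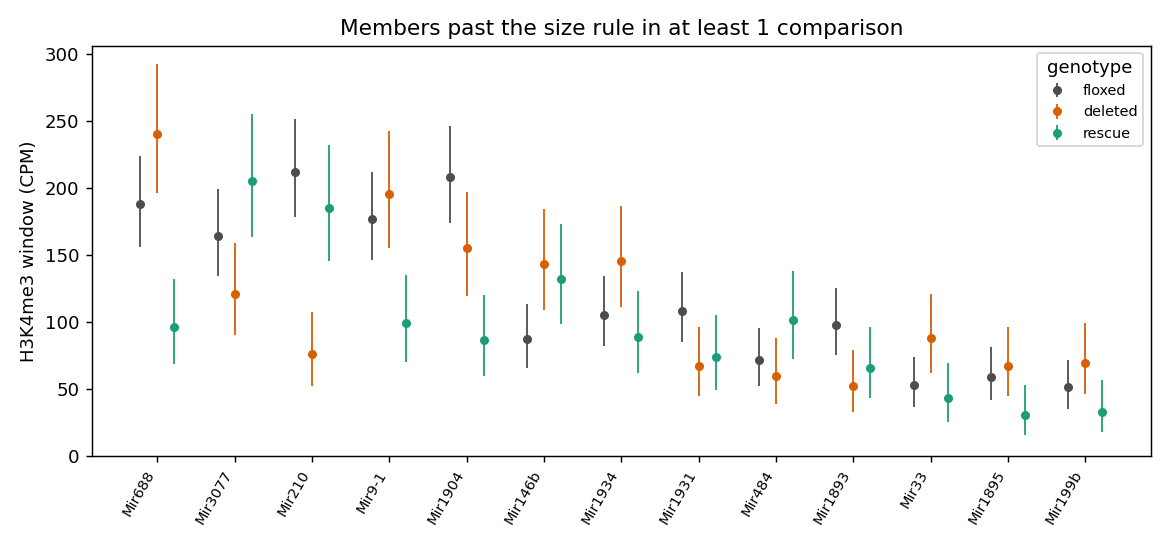
H3K4me3 level in CPM (vertical axis) of the 13 microRNA genes called in at least 1 comparison, with 1 point per library and bars for the 95% exact Poisson interval of the count. Mir210 is lowest in deleted, while Mir688, Mir9-1 and Mir1904 are lowest in rescue, where they held 38, 39 and 34 counts.

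Members with the same seed did not all show the same levels. The Mir9 genes, known from neural cells and from leukemias with MLL fusions, encode the same miR-9-5p printed above but differed among themselves. Mir9-2 had 110, 55 and 48 counts and Mir9-3 had 28, 30 and 21, neither called in any comparison, whereas Mir9-1 was the one called lower in rescue. The Mir9-3 ratio of deleted to floxed was 1.64, with an interval of 0.949 to 2.85. Mir132 and Mir212, known for their induction by CREB, had 119, 74 and 73 and 81, 51 and 43 counts. Their starts are 294 bp apart, so their windows can share reads, and they count as 1 signal in part. Mir34b and Mir34c, targets of p53, had 94, 59 and 52 and 30, 28 and 21 counts, with starts 528 bp apart. Mir148a and Mir152, known for targeting Dnmt1 and lying on chromosomes 6 and 11, had 143, 75 and 86 and 97, 61 and 69. Mir2861 and Mir3091, with the counts given above, lay in the promoter of Cdk9 and at the start of Rps21. None of these other pairs was called in any H3K4me3 comparison.

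H3K27me3 was counted over the gene span, which for a hairpin is short, and 65 of the 82 members had no H3K27me3 count in any genotype. Another 10 had at most 10 counts over the 3 libraries, and 7 had a mean of at least 5. Mir203, known from skin, had counts of 9, 7 and 38 in floxed, deleted and rescue. Its rescue to deleted ratio was 3.27 (1.44 to 8.69) and its rescue to floxed ratio 2.46 (1.17 to 5.77), both called higher. Mir9-2 had 12, 2 and 12 counts, with a deleted to floxed ratio of 0.161 (0.0175 to 0.722), called lower. Its rescue to deleted ratio of 3.62 (0.806 to 33.3) was not called. Mir34b had 8, 2 and 15 counts, with a rescue to deleted ratio of 4.52 (1.05 to 40.8), called higher, and a deleted to floxed ratio of 0.241 (0.0249 to 1.21), not called. The share of all 16991 genes with such counts that was called was 4.38% lower in deleted against floxed, 6.32% higher in rescue against deleted and 5.5% higher in rescue against floxed. The wide intervals follow from counts as low as 2. Mir129-2, with 15, 11 and 23 counts, Mir193a, with 16, 10 and 20, Mir34c, with 5, 3 and 13, and Mir688, with 2, 3 and 14, were called in no H3K27me3 comparison. Most differences between genotypes among these 7 members lay within counting error. The 7 were chosen by raw counts over libraries of unequal total. Mir34c and Mir688, with most of their counts in rescue, entered through that library, so no pattern over the 7 was read.

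The same 7 members held H3K4me3 at levels near the median member or above, except Mir34c. Mir203 had 118, 92 and 76 H3K4me3 counts, Mir129-2 had 122, 91 and 85, and Mir193a, known for targeting Kit, had 78, 69 and 54. None of those 3 was called in any H3K4me3 comparison. Whether both marks lay on the same chromatin or in different cells cannot be told apart in these libraries.

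**Figure D5:**
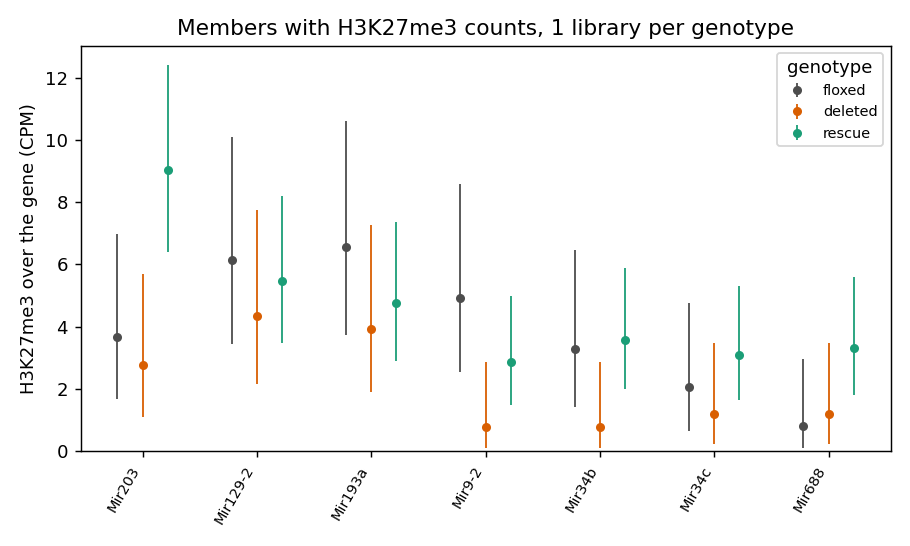
H3K27me3 level over the gene span in CPM (vertical axis) of the 7 members with a mean of at least 5 counts, with 1 point per library and bars for the 95% exact Poisson interval of the count. Most intervals overlap between genotypes, and Mir203 has its rescue point, from 38 counts, above those of floxed and deleted, from 9 and 7.

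The genes that hold the members gave more H3K27me3 counts than the hairpins. Of 53 different genes in the files whose span held a member, 35 had a mean of at least 5 counts. Deleted against floxed, none of these was called lower, where 4.38% of all genes were, and 2 were called higher, Cables1 and Cdk17, where 4.54% were. Cables1, a cyclin-dependent kinase adaptor that holds Mir1901, had 85, 150 and 39 counts. Its deleted to floxed ratio was 1.70 (1.30 to 2.25), its rescue to deleted ratio 0.157 (0.107 to 0.224) and its rescue to floxed ratio 0.267 (0.178 to 0.394). The H3K4me3 windows of Mir1901, given above, and of Cables1, with 131, 76 and 78 counts, were called in no comparison. Cdk17, which holds Mir1931, had 8, 27 and 31 H3K27me3 counts, a deleted to floxed ratio of 3.25 (1.44 to 8.29) and a rescue to floxed ratio of 2.25 (1.01 to 5.67). At this locus the Mir1931 H3K4me3 window was called lower in deleted and the H3K27me3 of the gene higher. The Mir1931 span itself had no H3K27me3 count, and the H3K4me3 window of Cdk17 was not called. Mir1893 was also called lower in deleted for H3K4me3. Its host Epc1 had 27, 28 and 38 H3K27me3 counts, with a deleted to floxed ratio of 1 (0.568 to 1.76). A link between the marks was not tested.

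Rescue against deleted, 3 of the 35 host genes were called lower and 3 higher, where 9.43% and 6.32% of all genes were. The lower ones were Cables1, Platr25, which holds Mir713 and had 20, 24 and 10 counts, and Rnf213, which holds Mir1932 and had 35, 47 and 43. The higher ones were C130071C03Rik, Fndc3b and Misp3. C130071C03Rik, the host transcript of Mir9-2, had 324, 245 and 628 counts, a rescue to deleted ratio of 1.55 (1.33 to 1.80), and a deleted to floxed ratio of 0.729 (0.615 to 0.863) that was not called because it falls short of the fold. Its H3K27me3 level was lowest in deleted, as was that of the Mir9-2 hairpin inside it. The same reads can enter both counts, so they are not separate measurements. Gm3764, the host of Mir9-1 and Mir3093, had 969, 737 and 1586 counts and ratios of 0.733 and 1.30, neither called. Misp3, at whose start Mir1199 lies, had 110, 92 and 254 counts (1.67, 1.31 to 2.14), and Fndc3b had 56, 39 and 103 (1.59, 1.09 to 2.37). Rescue against floxed, Cables1 and Platr25 were called lower and Cdk17 and Trps1 higher, where 6.63% and 5.5% of all genes were. Hic1, a tumor suppressor gene whose start is the nearest to Mir132 and Mir212 but whose span does not hold them, had 306, 195 and 557 H3K27me3 counts. Its deleted to floxed ratio was 0.614 (0.511 to 0.738), called lower as were 4.38% of all genes. Its rescue to deleted ratio was 1.72 (1.46 to 2.04), called higher as were 6.32%. Hic1 was the only gene outside the hosts given H3K27me3 calls here, so it is a single example. The H3K4me3 windows of Mir132 and Mir212 were called in neither comparison.

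The genes that make and use microRNAs were a further list. Of 30 listed, 28 had a row and 11 were measured for H3K4me3, with Drosha, the nuclear exporter Xpo5 and the Argonaute partners Tnrc6a, Tnrc6b and Tnrc6c among them. None was called in deleted against floxed, where 4.39% of all measured genes were lower and 3.02% higher. None was called in rescue against floxed either, where 3.92% and 1.92% were. The median log2 ratios of the list were 0.09 and 0.10. Rescue against deleted, only Tnrc6b of the 11 was called higher and none lower, where 4.49% and 5.97% of all measured genes were. Tnrc6b had 124, 56 and 95 counts and a ratio of 1.81, and the list median was -0.08. A single call among so few genes says nothing particular about the list.

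Summits of the Flag immunoprecipitation, which precipitates the tagged Hhex, numbered 475 in floxed, 220 in deleted and 429 in rescue, although the labels give the tag to rescue alone. Within 10 kb of a member there was no summit in rescue or floxed and 1 in deleted, 8536 bp from Mir677, which lies in the ATP synthase gene Atp5b. Over all 25275 genes with a position, 0.692%, 0.324% and 0.582% had a summit within that distance in floxed, deleted and rescue. The rescue list thus placed no summit within 10 kb of Mir210 or any other member.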

How the data were processed

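Each of the 6 histone files holds raw counts by gene, as whole numbers, deposited by the authors without normalization, and per the submitters' processing notes featureCounts, MACS2 and the build mm10 were used (no versions given there). No aligner is named there. Per the labels' protocols, sonicated chromatin was precipitated with polyclonal H3K27me3 or H3K4me3 antibodies on protein A beads, or with anti-Flag beads. For Flag, the authors deposited 3 lists of summits, each with a −log10 value. Per the file columns, H3K4me3 windows had the same length for all but 2 named rows, and H3K27me3 was counted over gene spans.

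Rows without a symbol (568 of 27179, 0.608% to 0.739% of counts) were left out. Counts were divided by the named-gene total of each library and compared by the CPM ratio with a 95% exact conditional binomial interval, for counting error only. A call needs a ratio of 1.5 and an interval off 1, in genes with a mean of at least 20 H3K4me3 or 5 H3K27me3 counts. Log2 ratios used a prior count of 1. No input library was used. Positions, hairpins and promoter windows came from RefSeq tables of GRCm38.p6, the assembly of mm10; exons and chromosome 18 starts were not analysed here. The method was run on simulated counts with counting error alone, which cannot show how far libraries of the same genotype would vary. Alternatives used edgeR 4.0.16 factors and DESeq2 1.42.0 size factors. The members and lists were chosen with earlier results of these data known. Genes were named by a written rule: members called in any comparison, those with the highest, lowest and threshold levels, those on the blood list, those with H3K27me3 counts and their neighbours. Other genes are examples picked after their values were seen. Python 3.11.15 and scipy 1.17.1 were used.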

Additional observations from a re-analysis of the deposited data

How the results depend on the processing

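With 1 library per group, no replicate could be left out. No paired analysis was possible because each group has 1 library and the result comes from no test. The counts of called members moved most with the filter, the fold and the interval. Deleted against floxed, the 3 lower calls became 5 with all 445 microRNA rows holding a count, 5 with a mean of at least 10 counts, 1 with a mean of at least 50, 1 with a fold of 2 and 1 with a 99% interval. The 2 higher calls became 9 without a filter, 1 with edgeR TMM factors, 1 with a mean of at least 50, 0 with a fold of 2 and 1 with a 99% interval. Rescue against deleted, the 7 lower calls became 4 with a mean of at least 50, 4 with a fold of 2 and 3 with a 99% interval, and the 3 higher calls became 5 without a filter and 1 with a fold of 2. Rescue against floxed, the 3 lower calls became 5 without a filter, 5 with a mean of at least 10 and 1 with a fold of 2, and the 1 higher call became 7 without a filter, 2 with a mean of at least 10, and 0 with TMM factors, a fold of 2 or a 99% interval. The 1 member near a deleted Flag summit became 0 at 2 kb. Mir33 lost its deleted to floxed call (ratio 1.60) and Mir146b its rescue to floxed call (1.46) under TMM, and Mir1895 gained a rescue to floxed call (0.498). Mir210 kept its calls under every setting run. No call changed direction, but some uncalled ratios near 1 crossed it. Examples were Mir5126 in deleted against floxed (1.04, and 0.995 under TMM) and Mir1901 in rescue against floxed (1.01, 0.971 under TMM and 0.998 with median-of-ratios size factors). Median-of-ratios scaling, the total of all rows and merging Mir132 with Mir212 left the counts of calls within 1.5 times. Member counts of 12 to 312 limit what these libraries can show.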

Other observations

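H3K27me3 counts were also present at microRNA rows below the H3K4me3 threshold, of which 21 had a mean of at least 5 H3K27me3 counts. The host transcript Mir99ahg, of the Mir99a and Mirlet7c cluster, had 220, 257 and 911 counts in floxed, deleted and rescue. Mir124a-1hg, the host of a neural microRNA, had 262, 191 and 375, together with 23, 19 and 7 H3K4me3 counts. Mir143hg had 145, 220 and 352. Carmn, the gene that holds the member Mir145a, had the same counts over the same 19661 bp. Mir143hg therefore adds no signal beyond the host genes described above. Among the hairpins, Mir375, known from pancreatic islets, had 20, 12 and 40 counts, Mir196a-2, in the Hoxc cluster, had 14, 14 and 25, and Mir137, another neural microRNA, had 2, 9 and 18. The H3K27me3 totals of the libraries were 2444487, 2535576 and 4203349, and the counts in this paragraph are not scaled for them.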
